A study of Mus musculus with 12 samples.

Results

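The data were gene counts for 6 mouse genes, Fga, Fgb, Fgg, Serpina1b, Serpina10 and Itih2, out of 21728 genes listed in any of 12 mRNA libraries. The libraries were of mouse EpiLCs, cells that resemble the epiblast, and of PGCLCs, which are made from EpiLCs and resemble primordial germ cells. The 6 genes were chosen by their measured levels, which were higher in PGCLCs of the bisphenol A (BPA) arm than in untreated PGCLCs, so their values in that comparison are given as a description and no test is read from them. Fga, Fgb and Fgg encode the 3 chains of fibrinogen. Serpina1b encodes a form of alpha-1-antitrypsin, the inhibitor of neutrophil elastase, Serpina10 the protein Z-dependent protease inhibitor, and Itih2 a heavy chain of the inter-alpha-trypsin inhibitor family, which binds hyaluronan.

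Fibrinogen is assembled from paired alpha, beta and gamma chains in the endoplasmic reticulum of hepatocytes, secreted into plasma and cut by thrombin to form fibrin, which plasmin later degrades. The plasma protease inhibitors made by the same cells limit thrombin, plasmin, factor Xa and leukocyte proteases. In the mouse embryo, before the liver forms, the visceral endoderm of the yolk sac makes many of the plasma proteins that the liver makes later. In the liver the fibrinogen genes are acute phase genes, induced through the interleukin 6 receptor and STAT3 together with C/EBP factors and HNF1.

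All libraries came from C57BL/6 cells of the genotype Blimp1-mVenus; Stella-ECFP (BVSC), in which fluorescent proteins report Prdm1 (Blimp1) and Dppa3 (Stella), and there were 4 groups of 3 libraries. Embryonic stem cells kept in 2i and LIF were cultured for 48 h in EpiLC medium; untreated EpiLCs are described as water controls, and EpiLCs of the BPA group received 100 nM BPA for the last 24 h. PGCLCs were made by growing EpiLCs in PGCLC medium in round-bottomed wells, were collected at day 5 and were sorted for both reporters, and 1 group is labelled untreated and the other 100 nM BPA. The labels leave unstated if the PGCLC medium held BPA too, whether replicates were separate cultures, or from how many stem cell clones the cells came, so p-values measure only the spread between these libraries.

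Counts in genes numbered 11785338 to 22029195 per EpiLC library and 30375633 to 34309195 per PGCLC library. Levels are given as CPM, counts-per-million of the library after TMM scaling. The count files list no gene under 10 counts, so a gene without a row had at most 9, equal to between 0.262 and 0.764 CPM depending on the library. Where libraries of a group did not list a gene, each was given 9 counts and the fold is a lower bound. The 3 BPA PGCLC libraries carry another naming scheme than the untreated PGCLC libraries, and their count files hold a summary row for reads that did not align uniquely, which none of the 3 untreated PGCLC files and 1 of the EpiLC files holds. These differences and the arm cannot be told apart. The sorted cells had the reporter genes: Prdm1 was at 191.2 ± 11.3 CPM in untreated PGCLCs and 152.3 ± 13.2 in the BPA arm, and Dppa3 at 233.8 ± 24.3 and 218.4 ± 27.4 CPM (SD, n = 3), against 10.5 ± 0.668 and 17.2 ± 3.70 CPM in untreated EpiLCs.

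The promoters of 4 members are printed here, to show which liver-type elements members with a shared pattern have in common. Each is the 250 bases before the RefSeq start (GRCm38.p6), read 5′ to 3′ on the gene's strand, at chr3:83025903-83026152 (Fga, plus strand), chr3:83049864-83050113 (Fgb, minus strand), chr3:83007474-83007723 (Fgg, plus strand) and chr12:103738190-103738439 (Serpina1b, minus strand). Capitals mark matches to an HNF1 half-site (GTTAAT), the type II interleukin 6 element (CTGGGAA), a C/EBP site (TTGCNNAA) or a forkhead site (TNTTTAC), each searched on both strands.
Fga: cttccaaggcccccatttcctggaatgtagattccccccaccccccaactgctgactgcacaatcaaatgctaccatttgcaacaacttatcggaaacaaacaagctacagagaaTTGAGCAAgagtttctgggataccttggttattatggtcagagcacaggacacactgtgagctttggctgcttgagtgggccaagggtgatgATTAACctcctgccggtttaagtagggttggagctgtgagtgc
Fgb: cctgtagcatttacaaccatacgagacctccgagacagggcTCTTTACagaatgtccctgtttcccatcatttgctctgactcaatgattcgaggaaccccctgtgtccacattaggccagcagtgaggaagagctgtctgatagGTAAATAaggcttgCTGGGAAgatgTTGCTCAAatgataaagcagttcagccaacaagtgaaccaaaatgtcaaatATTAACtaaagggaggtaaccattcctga
Fgg: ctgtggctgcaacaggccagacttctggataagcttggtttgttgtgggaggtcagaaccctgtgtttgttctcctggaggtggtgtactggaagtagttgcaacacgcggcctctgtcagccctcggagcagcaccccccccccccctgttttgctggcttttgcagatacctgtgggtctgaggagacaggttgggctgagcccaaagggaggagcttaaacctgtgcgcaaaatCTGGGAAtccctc
Serpina1b: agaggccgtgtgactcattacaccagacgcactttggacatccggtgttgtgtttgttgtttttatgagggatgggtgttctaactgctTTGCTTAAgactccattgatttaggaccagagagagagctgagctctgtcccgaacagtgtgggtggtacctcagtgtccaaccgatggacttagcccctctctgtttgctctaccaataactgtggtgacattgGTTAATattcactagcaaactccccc
The HNF1 half-site began at -43 in Fga, -29 in Fgb and -26 in Serpina1b, counted in bases from the start. It was in 3 of 5 member promoters, against 7.1% of the 32851 mouse promoters in the RefSeq table. In all of these and in the members the window searched ran from 250 bases before to 50 bases after the start, of which the first 250 bases are printed. The C/EBP letters were in 4 of 5, in Fga, Fgb, Serpina1b and Itih2 (chr2:10130684-10130933, minus strand), against 10.8%. The interleukin 6 element was in 2 of 5, Fgb and Fgg, against 11.1%, and the forkhead letters were in Fgb alone of the 5, at 2 places, against 12.4%. No member promoter held TATAAA (13.6% of all promoters) or the HNF4 letters CAAAGNCCA (1.98%). No matches overlapped. The motifs were chosen with the sequences in view, and a match describes letters, not binding. Serpina10 was not among the promoters used. For Fga, Serpina1b and Itih2 the gene coordinates given below, from another annotation, begin upstream of the RefSeq start. The 250 bases of Fga therefore lie partly, and those of Serpina1b and Itih2 wholly, inside those coordinates.

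Fibrinogen transcripts were the bulk of the group, and the beta chain gene was the most abundant member per length. Fgb (chromosome 3, 83040141 to 83049863, minus strand, mm10) had 159, 143 and 100 counts in the untreated PGCLC libraries and 3440, 3373 and 2933 in the BPA arm. That is 5.06, 4.45 and 3.18 CPM against 111.8, 112.1 and 82.9 CPM. All 3 BPA libraries were far above all 3 untreated ones, and the means, 4.23 ± 0.958 and 102.3 ± 16.8 CPM (SD, n = 3), differed 24.2-fold, a fitted log2 difference of 4.61 ± 0.21 (SE).

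Fgg, the gamma chain gene (chromosome 3, 83007724 to 83015049, plus strand), had 42, 24 and 49 counts in untreated PGCLCs and 1237, 1217 and 956 in the BPA arm. Its levels were 1.34, 0.746 and 1.56 CPM untreated and 40.2, 40.5 and 27.0 CPM in the BPA arm. The groups did not overlap, and the means of 1.22 ± 0.421 and 35.9 ± 7.69 CPM were 29.6-fold apart (log2 4.90 ± 0.29). The gene model overlaps an antisense noncoding RNA, Gm30097, which had 13, 13 and 16 counts in the BPA arm and 0 (unlisted), 13 and 13 in untreated PGCLCs. Whether reads were counted by strand is not stated in the labels.

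Fga, the alpha chain gene (chromosome 3, 83026076 to 83033627, plus strand), was listed in 1 of 3 untreated PGCLC libraries, replicate 3, with 25 counts. It had 1598, 1525 and 2138 counts in the BPA arm, or 51.9, 50.7 and 60.4 CPM. With 9 counts in the 2 libraries that did not list it, the difference was at least 119.7-fold. The BPA mean was 54.4 ± 5.29 CPM against 0.796 CPM in the single untreated library that listed the gene.

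The protease inhibitor genes were found in the BPA arm alone among the 4 groups, and at low levels. Itih2 (chromosome 2, 10094593 to 10131396, minus strand) had 140, 138 and 91 counts there, 4.55, 4.59 and 2.57 CPM, and was at least 13.7-fold above untreated PGCLCs. Serpina1b (chromosome 12, 103728156 to 103830373, minus strand) had 44, 32 and 33 counts, 1.43, 1.06 and 0.932 CPM, at least 4.02-fold higher. Serpina10 (chromosome 12, 103614786 to 103631444, minus strand) had 36, 23 and 25 counts, 1.17, 0.765 and 0.706 CPM, at least 3.10-fold higher. All 3 were unlisted in all 9 libraries outside the BPA arm, which limits them there to 9 counts a library and does not show that they were absent.

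**Figure D1:**
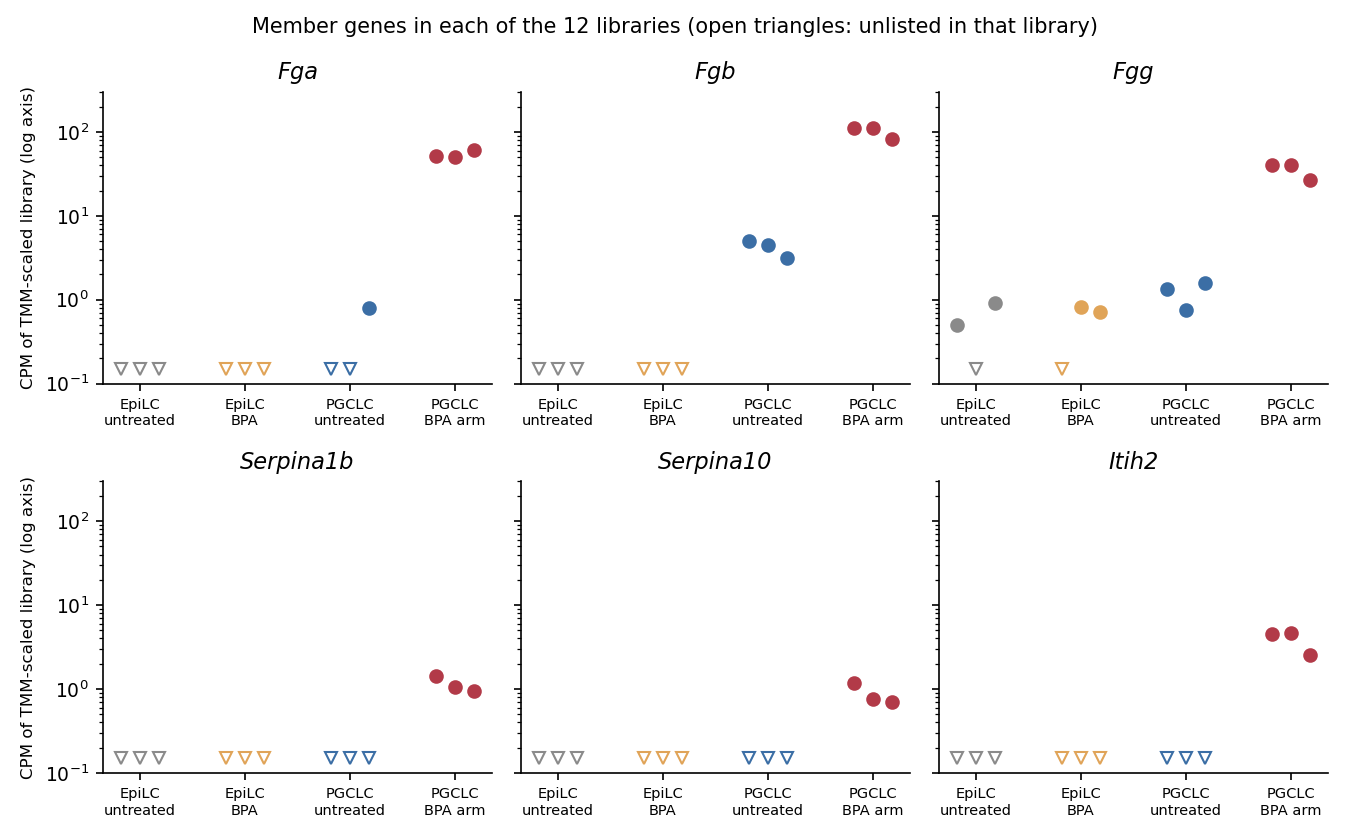
Level of each member gene in each of the 12 libraries, in CPM of the TMM-scaled library on a log axis, with 3 libraries per group side by side. Open triangles at the foot of each panel mark libraries that did not list the gene and carry no level. The BPA arm of the PGCLCs stands above all other libraries for each of the 6 genes, and Serpina1b, Serpina10 and Itih2 have points in that arm only.

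All 6 members passed the filter on low counts in the PGCLC comparison, 3 of them through the BPA arm alone, and all 6 were called higher by the edgeR quasi-likelihood test, where 8.13% of 16753 genes tested were. All 6 also had every BPA library above every untreated one, as did 17.9% of genes tested. These counts were fixed by how the genes were chosen, and nothing is read from them. As no threshold set the membership, there are no values just inside or outside one.

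Serpina1b has close relatives, and its count is uncertain for that reason. Of its 50-base stretches, 35.8% occur in transcripts of other genes, with 29.6% shared with Serpina1d, 28.3% with Serpina1a and 27.8% with Serpina1c. The long Serpina1b model also overlaps Serpina1d and 3 pseudogenes on the same strand, none of which was listed in any library. Serpina10 shared 1.89% of its stretches with other genes, and the other 4 members shared none.

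Per kilobase of exon, the fibrinogen chain genes were well above the inhibitor genes in the BPA arm. Fgb was at 26.8 ± 4.41 CPM per kb, Fga at 18.1 ± 1.76, Fgg at 17.2 ± 3.67, Itih2 at 1.18 ± 0.348, Serpina1b at 0.473 ± 0.107 and Serpina10 at 0.252 ± 0.0721 (SD, n = 3). In this order only Fga and Fgg overlapped between neighbours. In untreated PGCLCs Fgb led with 1.11 ± 0.252 CPM per kb, followed by Fgg with 0.580 ± 0.201, whose libraries did not overlap. Together Fga, Fgb and Fgg held 96.6% to 97.6% of the counts of the 6 genes in the BPA libraries.

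The ratio of the chains was not the same in all BPA libraries. Fga counts were 0.465 (95% exact Clopper-Pearson interval 0.438 to 0.493), 0.452 (0.425 to 0.481) and 0.729 (0.689 to 0.771) of Fgb counts in replicates 1, 2 and 3. Replicates 1 and 2 were alike and replicate 3 lay above both, beyond counting error, which is all these intervals cover. In the same libraries the Fgg to Fgb ratio was 0.360, 0.361 and 0.326, a narrower range. Per length, Fga stood at 0.588, 0.572 and 0.923 of Fgb and at 0.898, 0.871 and 1.56 of Fgg, so that in replicate 3 it was nearer to Fgb and farther from Fgg than in the other libraries. In untreated replicate 3, which alone listed Fga, the count ratio to Fgb was 0.25 (0.155 to 0.391).

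Replicate 3 of the BPA arm had the lowest CPM of the arm for 5 members, though by little for Serpina1b and Serpina10. As a percentage of the mean over the arm, Fgb was at 109.3, 109.7 and 81.0, Fgg at 112.0, 112.7 and 75.3, and Itih2 at 116.5, 117.6 and 65.9 in replicates 1, 2 and 3. Serpina1b and Serpina10 were also lowest in replicate 3, at 81.7 and 80.2, with replicate 2 at 93.2 and 86.9 and replicate 1 highest at 125.2 and 132.9. Their counts in replicates 2 and 3 were nearly equal, 32 and 33 for Serpina1b and 23 and 25 for Serpina10, so replicate 3 does not stand apart for them. Fga alone was highest in replicate 3, at 111.2 against 95.5 and 93.3. Afp, the yolk sac and fetal liver relative of albumin, was also lowest in replicate 3, with 118.9, 116.9 and 64.2, as were the apolipoprotein gene Apoa1, with 126.6, 124.2 and 49.2, and the transthyretin gene Ttr, with 119.6, 113.8 and 66.6.

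**Figure D2:**
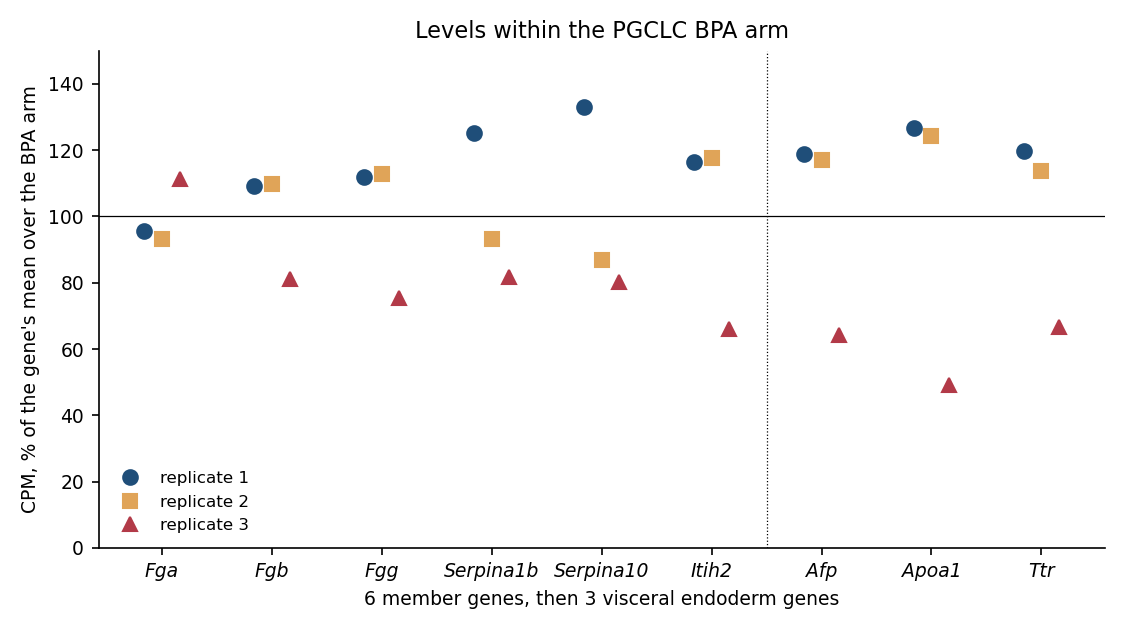
Level of the 6 member genes and of 3 visceral endoderm genes in each library of the PGCLC BPA arm, as a percentage of the gene's mean CPM over the arm, with the line at 100 marking that mean. Replicate 3 (triangles) is the lowest point for every gene shown except Fga, where it is the highest at 111.2.

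Markers of the visceral endoderm moved with the members. The summed level of the 22 markers, of which only Apoc2 was unlisted in every PGCLC library, was 1636 to 2436 CPM in untreated PGCLCs and 6350 to 13820 CPM in the BPA arm, and 16 of 21 tested were higher with none lower (edgeR, adjusted p under 0.05, where 8.13% of all genes were higher). Afp went from 33.4 ± 11.5 to 2125 ± 659.6 CPM, higher by 6.01 ± 0.35 on the log2 scale (adjusted p = 0.000206), and Apoa1 from 22.5 ± 3.94 to 906.7 ± 399.2 CPM, higher by 5.35 ± 0.39 (adjusted p = 0.000439). The part of these markers in the members' values was not tested, and in bulk libraries more cells of a type and more RNA per cell cannot be told apart.

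Set against endoderm genes of the same library, fibrinogen gave different pictures by denominator. The summed CPM of Fga, Fgb and Fgg was 6.40, 5.19 and 5.54 in untreated PGCLCs and 203.9, 203.3 and 170.3 in the BPA arm. As a share of the summed visceral endoderm markers it was 0.263%, 0.281% and 0.339% untreated and 1.54%, 1.47% and 2.68% in the BPA arm, with no overlap. As a percentage of Afp it was 13.8, 21.2 and 19.0 untreated and 8.07, 8.18 and 12.5 in the BPA arm, so that fibrinogen was lower relative to Afp. As a percentage of Apoa1 the groups overlapped, at 30.7, 26.4 and 20.5 untreated and 17.8, 18.1 and 38.2 in the BPA arm.

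**Figure D3:**
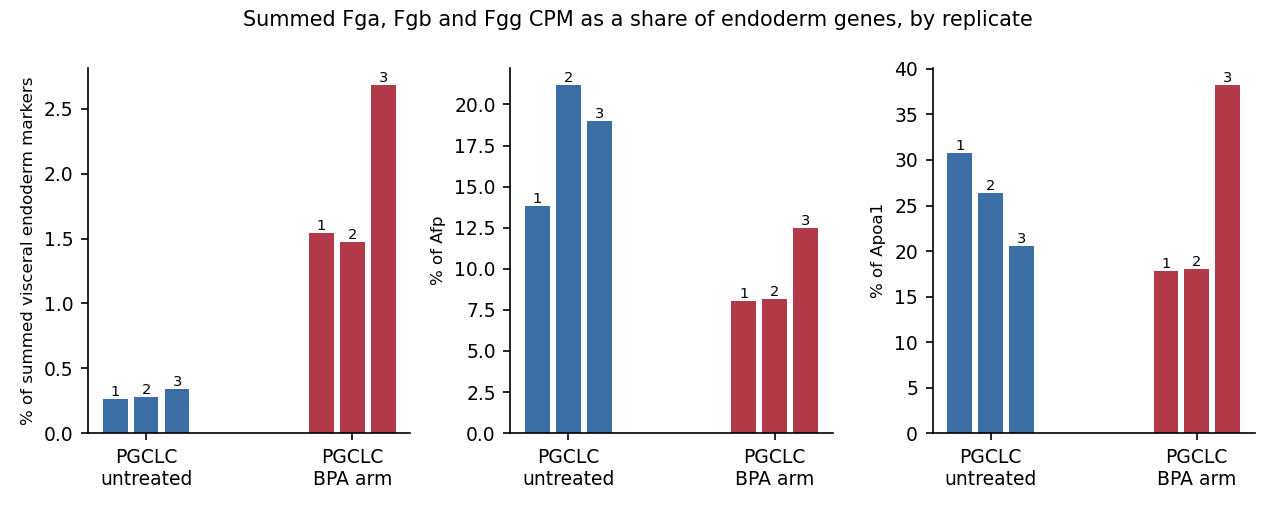
Summed CPM of Fga, Fgb and Fgg as a percentage of the summed visceral endoderm markers, of Afp and of Apoa1, for each PGCLC library (bars labelled with the replicate number, axes from 0). The share of the marker sum is higher in every BPA library (1.47% to 2.68%) than in every untreated one, the share of Afp is lower, and the share of Apoa1 overlaps.

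Markers of hepatocytes and platelets, which make or carry fibrinogen, were also measured. Of 16 hepatoblast and hepatocyte markers, Cyp3a11, G6pc, Tdo2, Cyp7a1 and Ugt2b1 were among those unlisted in every PGCLC library, 2 of 5 tested were higher (8.13% of all genes tested were), and the sum was 145.8 to 167.2 CPM untreated and 212.0 to 226.4 CPM in the BPA arm, with no overlap. Alb, the albumin gene, was unlisted in all untreated libraries and at 0 (unlisted), 2.93 and 0.311 CPM in the BPA arm. Of 9 megakaryocyte and platelet markers, Pf4, Gp1bb, Gp6 and Treml1 were unlisted in every PGCLC library, neither of 2 tested was called, and the sum was 2.52 to 3.73 CPM untreated and 2.99 to 4.97 in the BPA arm. Their part in the members' values was not tested.

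In EpiLCs the members were nearly silent at this depth, with or without BPA. Fgg was listed with 11 and 13 counts in untreated replicates 1 and 3 and with 10 and 16 counts in BPA replicates 2 and 3, and in no other EpiLC library. Its mean was 0.466 ± 0.453 CPM untreated and 0.515 ± 0.449 CPM under BPA, a log2 difference of 0.19 ± 1.56 (adjusted p = 0.984), and its sign turned in 3 of the 6 fits that left out 1 library. The other 5 members were unlisted in all 6 EpiLC libraries. Of 15252 genes tested in EpiLCs, 0% were called in either direction by edgeR, and DESeq2 called 16. The edgeR test gave 118 genes an unadjusted p under 0.05, fewer than the 762.6 expected if no gene differed. The lack of calls therefore does not show that BPA had no effect in EpiLCs. Fgg, the 1 member tested in EpiLCs, lacked the pattern of all BPA libraries above all untreated ones, which 2.5% of the genes tested had.

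Between the untreated stages, Fgb was the 1 member whose difference passed the test. It was unlisted in all 3 untreated EpiLC libraries and at least 8.81-fold higher in untreated PGCLCs (adjusted p = 7.51e-06), in a comparison where 30.4% of 17608 genes were higher and 25.2% lower, 55.6% in all, and 32.1% had no overlap and were higher. Fgg had a log2 difference of 1.51 ± 0.77 (adjusted p = 0.116) and overlapping groups. For Fga, with 1 listed library in 6, the adjusted p was 0.139, and for Serpina1b, Serpina10 and Itih2 all 6 libraries were unlisted. This comparison shares the untreated PGCLC libraries with the one by which the members were chosen.

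The fibrinogen genes lie together, and the genes around them did not pass the test. The starts of Fgg and Fga are 18.5 kb apart and those of Fga and Fgb 23.7 kb. Plrg1, a spliceosome gene whose start lies 5.66 kb from that of Fgb, was at 112.9 ± 7.62 CPM untreated and 98.4 ± 4.69 CPM in the BPA arm, a log2 difference of -0.19 ± 0.08 (adjusted p = 0.145). Lrat, which makes retinyl esters, differed by 0.22 ± 0.53 (adjusted p = 0.852). Itih5, of the same family as Itih2 and 22.9 kb from it, differed by -0.06 ± 0.42 (adjusted p = 0.95).

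Of 18 protein-coding genes with a start within 200 kb of a member's, 10 were tested and 0 were called by edgeR, against 13.9% of all genes tested in either direction. The nearest to the threshold was Ifi27l2b, an interferon-inducible gene at -174.2 kb from the Serpina10 start and listed in 2 of 3 untreated libraries, at 0.527 ± 0.560 CPM untreated and 5.0 ± 0.681 CPM in the BPA arm (log2 3.25 ± 0.91, adjusted p = 0.0512), and DESeq2 called this 1 gene. It was also called without untreated replicate 3, and Ppp4r4 was called without BPA replicate 3. Around Serpina1b, its neighbours Serpina6, Serpina16, Serpina1f, Serpina1d and Serpina1c were unlisted in every PGCLC library, and Serpina1a was listed in 1.

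**Figure D4:**
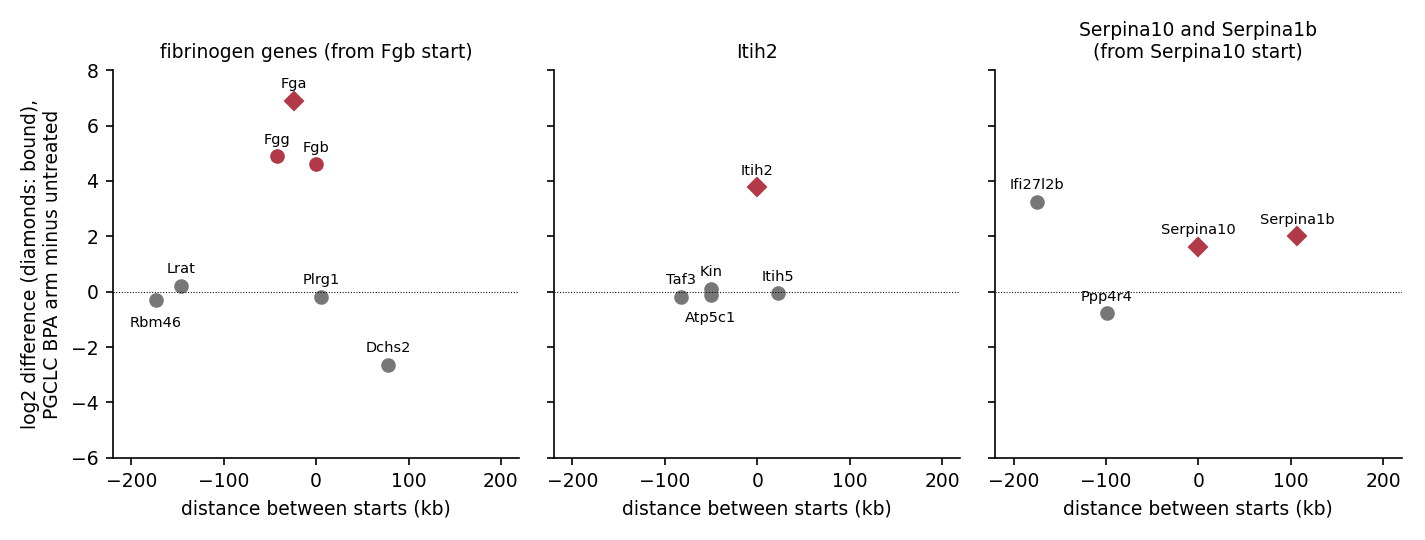
Log2 difference between the PGCLC BPA arm and untreated PGCLCs against the distance between starts in kb, for members (red) and for tested protein-coding genes within 200 kb (grey), at the 3 loci. Circles are fitted differences and diamonds are lower bounds with 9 counts in libraries that did not list the gene. Most grey points lie near 0, with Ifi27l2b at 3.25 and Dchs2, a poorly covered gene, at -2.63.

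The genes of the same pathways were taken from 10 lists with 199 genes besides the members, 164 of them listed in some library. These lists were chosen with earlier results of these data known, so their shares are a description and not a test of the lists. In PGCLCs 146 were tested, of which 37 (25.3%) were higher and 4 (2.74%) lower in the BPA arm, with a median log2 difference of 0.36. Over all genes tested 8.13% were higher and 5.72% lower, with a median of 0.01. Some of the 37 higher genes, among them Proz, Plau, Serpind1, Serpinc1, Mbl2 and C9, were unlisted in all untreated PGCLC libraries. Such genes passed the filter through the BPA arm alone and could be called only higher, so nothing is read from their adjusted p-values. The 41 calls became 25, 23 and 26 without untreated replicate 1, 2 or 3, 15 and 16 without BPA replicate 1 or 2, and 55 without BPA replicate 3. They were 30 with limma-voom and 30 in 1 fit of all 12 libraries. In EpiLCs 102 of the 199 were tested and 0 were called, with a median of -0.02.

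Of the coagulation factors 8 of 15 tested were higher and 1 lower, with a median of 1.33. F2, prothrombin, the zymogen of the protease that cuts fibrinogen, went from 2.42 ± 1.46 to 20.5 ± 5.32 CPM (log2 3.09 ± 0.45, adjusted p = 0.00559). Proz, protein Z, the cofactor through which the Serpina10 product inhibits factor Xa, was unlisted in untreated PGCLCs and at 3.23 ± 0.328 CPM in the BPA arm, at least 11.4-fold higher (adjusted p = 0.00259). Proc, the anticoagulant protein C, was listed in 2 of 3 untreated libraries and was at least 19.7-fold higher in the BPA arm (adjusted p = 0.00892), and Pros1, its cofactor protein S, fell by 0.70 ± 0.14 on the log2 scale (adjusted p = 0.0165). The list had 3 to 5 higher genes when any library but BPA replicate 3 was left out and 7 without that one, 3 with limma-voom, where Proc lost its call, and 4 in 1 fit of all 12 libraries. The Pros1 call was lost without untreated replicate 1 or 2 and without BPA replicate 1 or 2.

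Of the fibrinolysis genes 5 of 11 tested were higher and 0 lower, with a median of 1.76, or 0.88 with genes unlisted in a group at their bound. Serpinf2, alpha-2-antiplasmin, the main plasma inhibitor of plasmin, went from 1.95 ± 0.643 to 70.3 ± 26.0 CPM (log2 5.18 ± 0.38, adjusted p = 0.000459). Plg, plasminogen, was listed in 2 of 3 untreated libraries and was at least 12.8-fold higher in the BPA arm (adjusted p = 0.0236). Plaur, the urokinase receptor gene, rose by 1.76 ± 0.34 (adjusted p = 0.0152), and Plau, urokinase, was at least 4.11-fold higher (adjusted p = 0.0229). Serpinf2 kept its call in all 6 fits that left out 1 library. Plg lost it without untreated replicate 2 or BPA replicate 1 or 2, with limma-voom and in 1 fit of all 12 libraries, Plau without untreated replicate 3 or any BPA library, and Plaur without any library but BPA replicate 3. The list had 1 to 3 higher genes in those fits.

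Of 11 fibrinogen relatives and receptors tested, 0 passed in either direction by edgeR, with a median of 0.03. Itga5 (the alpha 5 integrin of the fibronectin receptor) had the smallest p, at 96.0 ± 3.52 CPM untreated and 141.3 ± 32.6 in the BPA arm (log2 0.57 ± 0.16, adjusted p = 0.0523). It passed under most other settings that kept all libraries, DESeq2 and RLE factors among them, and not with limma-voom or the replicate block. Of the 6 fits that left out 1 library, Itga5 passed only in the 1 without BPA replicate 3. Without BPA replicate 3 the list had 2 higher genes.

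Calls among serpin relatives of the inhibitor genes fell outside clade A. Of the clade A serpins other than the 2 members, 8 of 22 were listed in any library, 4 were tested and 0 were called. Serpina3m, a mouse relative of alpha-1-antichymotrypsin, had the smallest p, with 8.96 ± 1.11 and 11.7 ± 1.76 CPM (log2 0.40 ± 0.18, adjusted p = 0.186). Among other serpins 3 of 14 were higher and 1 lower, where 8.13% of all genes tested were higher and 5.72% lower. Serpind1, heparin cofactor II, was at least 5.49-fold higher (adjusted p = 0.0140) and Serpinc1, antithrombin, at least 4.01-fold (adjusted p = 0.0293), both unlisted in the untreated libraries. Serpinh1, the collagen chaperone HSP47, rose by 0.57 ± 0.13 (adjusted p = 0.0267) and Serpinb1a, an intracellular inhibitor of neutrophil proteases, fell by 1.75 ± 0.48 (adjusted p = 0.0476). Left out 1 at a time, any library but BPA replicate 3 ended the call of Serpinc1 and any of the 6 that of Serpinb1a. Serpinh1 lost its call without untreated replicate 2 or 3, and it and Serpind1 lost theirs without BPA replicate 1 or 2.

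Of the inter-alpha-inhibitor family and other plasma protease inhibitors, 3 of 14 tested were higher and 1 lower. Ambp, whose product is cut to give bikunin, the light chain that the heavy chain from Itih2 is joined to, was listed in 1 untreated library at 0.382 CPM and in all BPA libraries at 6.14, 6.62 and 5.51 CPM (at least 19.3-fold, adjusted p = 0.0105). Has2, a hyaluronan synthase, fell by 0.96 ± 0.14 (adjusted p = 0.00508), from 39.8 ± 5.99 to 20.3 ± 1.74 CPM. Spint1, a Kunitz-type membrane inhibitor, rose by 1.07 ± 0.13 (adjusted p = 0.00313), and Spink1, a trypsin inhibitor, by 1.78 ± 0.48 (adjusted p = 0.0446) although its lowest BPA library, replicate 3, lay below the highest untreated one. The Ambp call was lost without BPA replicate 1 or 2 and that of Spink1 without any library but BPA replicate 3.

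Complement genes were higher in 4 of 18 cases with 0 lower and a median of 0.88. Clu, clusterin, went from 55.5 ± 5.16 to 506.8 ± 222.1 CPM (log2 3.20 ± 0.34, adjusted p = 0.00177), and Cfi, the protease factor I, listed in 2 of 3 untreated libraries, was at least 27.5-fold higher (adjusted p = 0.00422). Mbl2, a mannose-binding lectin, was at least 4.80-fold higher (adjusted p = 0.0168) and C9, of the membrane attack complex, at least 4.33-fold (adjusted p = 0.0207). Mbl2 and C9 lost their calls without BPA replicate 1 or 2.

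Among the factors that bind liver promoters, 6 of 21 tested were higher, 0 were lower and the median was 0.82. Hnf4a, a nuclear receptor of hepatocytes and visceral endoderm, went from 14.2 ± 2.43 to 142.4 ± 61.9 CPM (log2 3.35 ± 0.36, adjusted p = 0.00180). The forkhead genes Foxa3 and Foxa2 rose by 3.26 ± 0.44 (adjusted p = 0.00419) and 2.83 ± 0.42 (adjusted p = 0.00598), and the nuclear receptor gene Nr2f2 by 2.46 ± 0.42 (adjusted p = 0.00981). Without BPA replicate 3 the list had 12 higher genes, and without any other single library 5 or 6. Foxa3 lost its call with limma-voom and Nr2f2 in 1 fit of all 12 libraries. Of this list 5 genes are also among the visceral endoderm markers, Foxa2, Gata4, Gata6, Hnf4a and Sox17.

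Of 17 interleukin 6 and acute phase genes tested, 1 was higher and 1 lower, with a median of -0.10, where 13.9% of all genes tested were called in either direction. Hpx, hemopexin, the plasma carrier of haem, was listed in 1 of 3 untreated libraries and was at least 22.3-fold higher in the BPA arm (adjusted p = 0.0119), and Pim1, a kinase gene induced by STAT3, fell by 0.39 ± 0.08 (adjusted p = 0.0198). The call of Hpx was lost without BPA replicate 1, and that of Pim1 without untreated replicate 1 or 3 or BPA replicate 1 or 2.

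Genes for secretion and folding of glycoproteins, through which fibrinogen leaves the cell, were higher in 7 of 22 cases with 0 lower, and most differences were small, with a median of 0.06. Creb3l3, a membrane-bound factor known to induce acute phase genes in liver, went from 2.94 ± 1.13 to 46.2 ± 14.3 CPM (log2 3.99 ± 0.34, adjusted p = 0.000826). Mia2, for export of large cargo, rose by 0.59 ± 0.09 (adjusted p = 0.00802), Sec24d, of the vesicle coat, by 0.51 ± 0.11 (adjusted p = 0.0223), and Surf4, a cargo receptor, by 0.48 ± 0.11 (adjusted p = 0.0238). Sec24d and Surf4 lost their calls without any library but BPA replicate 3, and the list had 2 higher genes in each of those fits and 8 without that replicate. In 1 fit of all 12 libraries it had 3, and Sec24d lost its call.

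**Figure D5:**
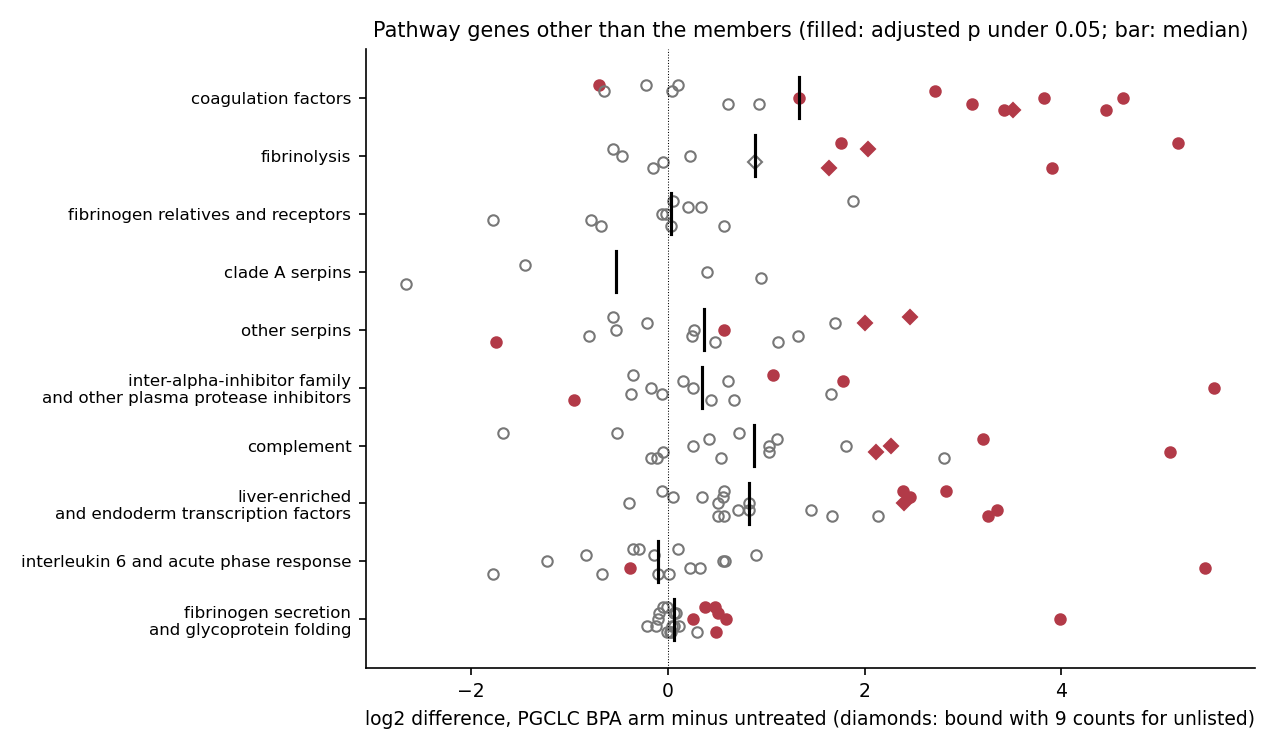
Log2 difference between the PGCLC BPA arm and untreated PGCLCs for each tested gene of the 10 pathway lists, members left out. Filled points passed the edgeR test, diamonds are bounds with 9 counts for a group that did not list the gene, and bars are medians. Coagulation factors hold 8 filled points above 0, and fibrinogen relatives and receptors hold none.

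Between the untreated stages more of the pathway genes were higher in PGCLCs than lower, to a degree that differed between lists. Of 135 pathway genes tested, 73 (54.1%) were higher and 10 (7.41%) lower, against 30.4% and 25.2% of all genes. Interleukin 6 and acute phase genes were higher in 12 of 16 cases with 0 lower, led by Lifr, a LIF receptor subunit (log2 3.23 ± 0.21, adjusted p = 1.49e-07), and Socs3, a feedback inhibitor of the pathway (3.16 ± 0.18, adjusted p = 7.17e-08). Transcription factors were higher in 11 of 19, including Nr5a2 (5.65 ± 0.19) and Gata4 (4.06 ± 0.43), and fibrinogen relatives and receptors in 6 of 10, including fibronectin, Fn1 (2.60 ± 0.22). Fibrinolysis genes were higher in only 4 of 9 cases with 2 lower, with a median of 0.25, against 0.07 over all genes. The median of the coagulation factors was 2.16, or 0.13 with genes unlisted in a group at their bound. That of the transcription factors was 2.08 either way. Pros1 (3.41 ± 0.19) and Has2 (3.55 ± 0.22), both lower in the BPA arm, were higher in untreated PGCLCs than in untreated EpiLCs. The 2 contrasts share the untreated PGCLC libraries, so values of 1 gene in both are not independent. The stages also differed in depth, with 9 counts equal to 0.412 to 0.586 CPM in untreated EpiLCs and 0.281 to 0.284 CPM in untreated PGCLCs. A gene could therefore be unlisted in EpiLCs, and enter as 0, at a level that was listed in PGCLCs. How far this raised the number of higher genes was not tested.

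Among the genes whose levels over the 12 libraries were most like the members' mean were several for secreted proteins. Likeness was Pearson's r of log2(CPM + 1) with the mean of that value over the members, over 12 libraries that share 4 groups, and 13578 genes were ranked. Spp2, a secreted phosphoprotein, had r = 0.997, Gpx3, plasma glutathione peroxidase, 0.995, Timd2, a ferritin receptor, 0.993, Serpinf2 0.992 and Rarres1 0.992. Spp2 went from 0.652 ± 0.179 CPM in untreated PGCLCs to 44.9 ± 16.6 in the BPA arm, and Gpx3 from 33.3 ± 4.04 to 504.7 ± 126.5. The members themselves had pairwise r of 0.920 to 0.998 over 15 pairs. As the members were chosen for their rise in the BPA arm, high r among them follows from that choice, and nothing is read from it. The ranking likewise favours any gene that rises in that arm. With a pseudocount of 0.25 in place of 1, 2 of the first 6 genes stayed among the first 6.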

How the data were processed

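Per the labels' protocols, libraries were made with the Universal Plus mRNA-Seq kit (NuGEN), which keeps strand. Tools listed in the submitters' processing notes are HTSeq, STAR, FastQC and bcl2fastq 2.19.1.403, with mm10 as the build and no parameters. The deposited files hold counts of reads per Ensembl gene, 1 file per library, in which the authors left out genes under 10 counts. Summary rows, 4.42% to 10.7% without a feature and 4.56% to 6.07% ambiguous, were kept out. The deposited CPM tables, 1 per stage, equal those counts divided by 1 constant per library and served as an alternative within a stage. Groups follow the titles; 1 description, of the third untreated EpiLC library, has a replicate number that differs from its title.

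Unlisted genes entered as 0. The filter was filterByExpr, the scaling TMM and the test the quasi-likelihood test of edgeR 4.0.16 (R 4.3.3) with Benjamini-Hochberg adjustment over all genes tested, threshold 0.05. BPA was tested within each stage (6 libraries) and the stage difference in 1 fit of all 12. Symbols, coordinates and exon lengths come from GENCODE M21 (21695 of 21728 IDs found), promoters from RefSeq (5 of 6 members matched). A step on simulated counts checked only that mean fitted log2 differences were near those put in. The simulated counts under 10 were not left out, so this step does not cover unlisted genes. SE is the log2 difference over the square root of F.

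Members and lists were chosen with earlier results of these data known. Named were, per list, up to 4 called genes with the smallest p in PGCLCs (or the 1 with the smallest p) and up to 2 in the stage comparison, some of which are left out of the text; the 6 genes of nearest pattern, 1 of which is not reported here; and Afp, Apoa1, Alb, Prdm1 and Dppa3. Neighbouring genes and shared sequence were added after the data were seen. Deviations of same-numbered EpiLC libraries from their group means correlated over 9926 genes (r = 0.18, 0.36 and 0.48 for numbers 1, 2 and 3). Libraries numbered 1 and 2 correlated about as strongly with each other (0.37 and 0.20), so the data do not pair these by number. Those numbered 3 correlated negatively with the other numbers (-0.56 to -0.29). The labels do not state a pairing. In PGCLCs same-numbered libraries did not correlate (0.05, -0.02 and -0.05). Alternatives were RLE factors, library size alone, other filters, DESeq2 1.42.0, limma 3.58.1 (voom, and trend on deposited CPM), a replicate block, unlisted genes as 9 counts, other sets of libraries in the fit, and each library left out.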

Additional observations from a re-analysis of the deposited data

Results flagged for a closer look

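Among the members and named genes, many of them named for a small p in PGCLCs, a pair of pathway genes had opposite directions in the stages. Every BPA library lay on one side of every untreated library in PGCLCs and on the other side in EpiLCs. In PGCLCs alone, 17.9% of all genes tested were higher in every BPA library. How many of all genes had opposite directions was not counted. Itga5, an integrin gene, had mean levels of 54.6 CPM in untreated and 50.2 CPM in BPA EpiLCs, and of 96.0 CPM in untreated and 141.3 CPM in BPA-arm PGCLCs. Foxa3, a forkhead factor of liver and endoderm, had 1.02 CPM in untreated and 0.551 CPM in BPA EpiLCs, and 0.896 CPM in untreated and 8.51 CPM in BPA-arm PGCLCs. It was listed in 2 of 3 BPA EpiLC libraries, the third entering its mean as 0, and its EpiLC levels lie close to the 9 counts below which genes are unlisted. The difference between the stages was not tested for either gene, and neither gene was called in EpiLCs.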

How the results depend on the processing

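Leaving out 1 library gave 668 (without BPA replicate 2) to 3206 (without BPA replicate 3) genes called in PGCLCs, against 2321 with all 6, and 15 to 55 pathway genes against 41. Over all genes, 1243, 1110 and 891 were called when untreated replicate 1, 2 or 3 was left out, and 677 when BPA replicate 1 was. These fits hold fewer samples. Of 33 named genes called in PGCLCs, 16 kept the call in all 6 such fits and 17 lost it in at least 1. The neighbours of the members had 0 to 1 calls in those fits, and 1, Ifi27l2b, with DESeq2, limma-trend on deposited CPM, the replicate block, unlisted genes as 9 counts, no TMM scaling, and both other filters (none, or 1 CPM in 3 libraries); the cause was not tested. In EpiLCs DESeq2 called 16 genes and each other alternative 0. Fgg in EpiLCs ranged from -0.41 (without untreated replicate 2) to 1.02 (without untreated replicate 3) when 1 library was left out, with -0.30 and -0.18 without BPA replicate 2 and without BPA replicate 3, with 2 of 3 libraries listed in each group. With the replicate number as a block the PGCLC count was 1618 and the pathway count 35, the stage counts 9106 and 81, and the EpiLC count 0; Serpinb1a, Serpinc1, Serpind1, C9, Mbl2 and Plau lost their calls. With limma-voom Plg, Proc, Foxa3, Serpinc1, Spink1 and Serpinb1a lost theirs, and in 1 fit of all 12 libraries Plg, Nr2f2, Serpinc1, Spink1, Serpinb1a, Sec24d and Prdm1 did. DESeq2 called 3462 genes in PGCLCs. Depth limits the 3 inhibitor genes and Fga in untreated cells, where only the bound of 9 counts is known, so their fitted log2 differences moved with the treatment of unlisted genes while those of Fgb and Fgg stayed between 4.26 and 4.62 and between 3.94 and 4.91 over the settings with all 6 libraries.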

Other observations

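Markers of other cell types than the endoderm were also measured in the sorted PGCLCs. Of all genes tested there, 8.13% were higher and 5.72% lower in the BPA arm. Erythroid and other blood markers had a summed level of 1.94 to 3.26 CPM untreated and 10.2 to 26.9 CPM in the BPA arm, with 2 of 6 tested higher. Trophoblast markers summed to 435.8 to 538.1 CPM untreated and 631.4 to 899.4 CPM in the BPA arm, with 3 of 10 higher and 1 lower. Parietal endoderm markers overlapped in sum, at 1837 to 2274 and 1918 to 3395 CPM, with 3 of 13 higher and 1 lower. Endothelial markers had 0 of 9 higher and 2 lower, and germ cell markers 0 of 10 higher and 4 lower, at 1633 to 1850 CPM untreated and 1459 to 1571 CPM in the BPA arm. Prdm1, a reporter gene of the sort, fell by 0.32 ± 0.08 on the log2 scale (edgeR adjusted p = 0.0334), a call lost without any library but BPA replicate 3. Dppa3, the other, differed by -0.09 ± 0.10 (adjusted p = 0.670).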
